A study of Rattus norvegicus with 18 samples.

Results

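The cytosolic and mitochondrial heat shock chaperones are the proteins that fold and refold other proteins outside the endoplasmic reticulum (ER), and 10 of their genes were followed here: Hspa8, Hspa4, Hsph1, Hsp90aa1, Hsp90ab1, Dnajb1, Dnaja1, Hspb1, Hspd1 and Hspe1. They were chosen by name, as the non-ER counterpart of the ER chaperones. No measured value entered that rule, but earlier results of these data were known. Of 31042 probe sets on the array that are not controls, 15 are annotated to these genes. Among them 12 are annotated to a single gene and cover 8 of the 10 members. The other 3 name a further gene beside the member. They are the only probe set of Hspa8, shared with Haus8l2, and both probe sets of Hsp90aa1, shared with the pseudogene Hsp90aa1-ps17. Counts below are for the 14 member probe sets that were bright enough to test, and the main counts are also given for the 11 of these with a single gene.

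The cells were clone #4S2, a single clone of the rat insulinoma line INS-1 that carries a doxycycline-inducible proinsulin C96Y-GFP, a mouse insulin that cannot close one of its disulfide bonds. Cultures received doxycycline at 2 µg/ml and were harvested after 24 h, after 48 h or after 5 days, beside untreated cultures of the same ages. Each of these 6 groups has 3 arrays, 1 from each of 3 experiments, and every group carries the inducible construct. No array holds doxycycline-treated cells without the construct, so on these arrays the drug and the mutant protein cannot be told apart. The study states, without showing the results, that this dose left Grp78 (Hspa5) and Chop unchanged in parental INS-1 cells. It names no member there.

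Misfolded protein in the ER lumen activates the unfolded protein response, which raises transcription of ER chaperones such as Hspa5 (BiP) through ATF6 and XBP1. Misfolded protein in the cytosol acts on the transcription factor HSF1, which binds heat shock elements and drives heat shock genes, Dnajb1 among them. Not every member need depend on it, and mitochondria have a chaperone system of their own. Mutant proinsulin enters the ER, and misfolded molecules are returned to the cytosol for degradation by the proteasome. The comparison therefore asks whether the chaperones outside the ER moved when the mutant protein was switched on.

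Promoter sequences of the members and of the ER chaperones were searched for the elements of these pathways. In the RefSeq windows of the rat assembly GRCr8, which run from 250 bases before to 50 bases after each start site, the 3-unit heat shock element GAANNTTCNNGAA was searched on both strands. It was present in 5 of the 9 members with a window, namely Hspa8, Hsph1, Dnaja1, Hspd1 and Hspe1, in 0 of 12 ER chaperones, and in 0.794% of 27457 genes. Its 2-unit part GAANNTTC, which it contains, was in 7 of 9 members and in 9.09% of all genes, and TTCNNGAA, which it also contains, was in 5 of 9 members and 9.27% of all genes. The ER stress response element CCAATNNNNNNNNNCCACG was in 0 of 9 members, 6 of 12 ER chaperones and 0.0765% of all genes. These matches describe the letters and do not show binding. No window for Hsp90aa1 was used here. Of the ER chaperones set against members below, Hspa5 holds 1 ER element and Hsp90b1 holds 2, of which 1 is printed. Hyou1 and Dnajb11 hold 0. The stretches below show 3-unit heat shock elements of Hspa8, Hsph1, Hspe1 and Hspd1, and ER elements of Hspa5 and Hsp90b1. All are read 5′ to 3′ on the strand of the gene with the element in capitals.
Hspa8, chr8:50080289-50080325, plus strand: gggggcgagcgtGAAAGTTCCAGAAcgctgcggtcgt
Hspa8, chr8:50080447-50080483, plus strand: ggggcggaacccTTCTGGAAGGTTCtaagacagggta
Hsph1, chr12:10427320-10427356, plus strand: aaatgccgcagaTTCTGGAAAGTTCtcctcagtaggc
Hspe1, chr9:64084257-64084284, plus strand: ctcggTTCTAGAACCTTCCGGAAggccc
Hspd1, chr9:64084257-64084284, minus strand: gggccTTCCGGAAGGTTCTAGAAccgag
Hspa5, chr3:38452961-38453003, plus strand: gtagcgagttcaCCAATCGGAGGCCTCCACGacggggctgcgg
Hsp90b1, chr7:23012335-23012377, minus strand: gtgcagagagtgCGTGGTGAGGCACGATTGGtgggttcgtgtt

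Hspa8 holds 2 separate elements, at 225 to 189 and 67 to 31 bases before its start site by the ends of the printed stretches. Hspd1 and Hspe1 lie head to head, and the 2 lines printed for them are the same place read on opposite strands. Their start sites in the table are 290 bases apart and their windows share 211 bases. That place also falls inside the span that RefSeq gives the Hspd1 gene, chr9:64073610-64084332.

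Before the results, 2 points about the 5-day arrays have to be stated. In experiment 1 at 5 days the ER chaperones were lower in the library labelled doxycycline for 12 of 12 genes, with a median log2 ratio of -1.47, whereas 12 of 12 were higher in each experiment of 24 h and 48 h, and 11 of 12 in the other two 5-day experiments. Over 15521 probe sets its ratios correlated at -0.45 to -0.04 with the 8 other experiments, which correlated at -0.00 to 0.52 among themselves. In addition, the doxycycline array of experiment 2 at 5 days had a GAPDH 3′ to 5′ signal ratio of 2.91, against 1.05 to 1.19 on the other 17 arrays, and a median correlation with the other arrays of 0.870, against 0.956 to 0.977. The 5-day values are therefore given as labelled, with the labels of experiment 1 exchanged, and without experiment 2. The study lists Sdf2l1, Creld2 and Hspa5 as induced at 5 days, each by a mean of more than 2-fold over its 3 experiments. Here their log2 fold changes were 0.64, 0.74 and 0.12 as labelled, and 2.58, 2.29 and 1.08 exchanged. Whether the labels were exchanged was not tested. Markers of the beta cell were present, since 9 of 9 passed the filter with a summed signal of 86272 to 106495 in doxycycline arrays and 83669 to 119787 in control arrays, and 0 of the 4 measured markers of other islet cells, 0 of 7 acinar and 0 of 5 fibroblast markers passed it. The endogenous Ins2 probe set does not check the labels, because it is not known whether it reads the mouse transgene.

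At 24 h and 48 h the cytosolic and mitochondrial chaperones did not pass the test in either direction. Of their 4 ER counterparts of the same protein families, Dnajb11 alone passed at 24 h and all 4 at 48 h. In limma with Benjamini-Hochberg adjustment over 15521 probe sets, 0 of 14 member probe sets were called at 24 h, where 0.206% of all probe sets were called, 0 of 14 at 48 h, where 3.52% were called, and 0 of 14 at 5 days, where 0% were called. Calls were so few over the whole array that a count of 0 does not by itself set the members apart, and the size of the changes says more. The median log2 fold change of the 14 was -0.07 at 24 h and -0.10 at 48 h, beside -0.01 for all tested probe sets at each of these times. No single experiment of 24 h or 48 h moved a member probe set by more than 0.39 log2 units. The 95% intervals of all 14 lay between -0.42 and 0.26 at 24 h and between -0.45 and 0.22 at 48 h. A doubling or halving of the array signal was thus outside every one of them. The study reports that its arrays missed early rises of Grp78 (Hspa5) and Pdi that real-time PCR detected. No other measurement of the members was compared here. The smallest adjusted p of a member was 0.263 at 24 h and 0.143 at 48 h. The plot of log2 ratios by probe set shows each experiment beside these intervals.

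**Figure D1:**
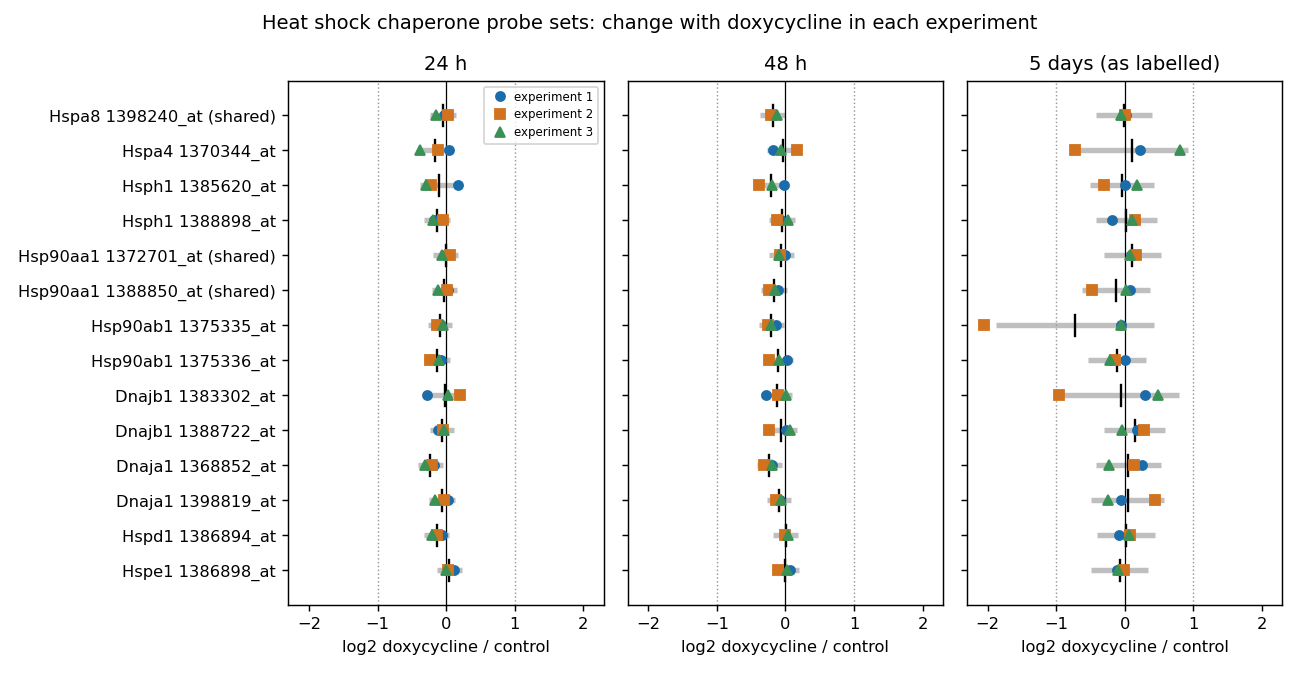
Log2 ratio of doxycycline to control signal for the 14 tested member probe sets in a panel for each of the 3 times (5 days as labelled), with circles, squares and triangles for experiments 1, 2 and 3, black ticks for the mean and grey bars for the 95% interval of the limma fit. At 24 h and 48 h all points lie within 0.39 of 0, and at 5 days the square of Hsp90ab1 probe set 1375335_at stands at -2.05.

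Hspa8 encodes the constitutive cytosolic Hsp70, Hsc70, which holds nascent and unfolded chains (chr8:50080514-50084376). Its probe set 1398240_at read 21382, 19682 and 18077 signal units in doxycycline arrays of 24 h, against 21868, 19217 and 20096 in control arrays. At 48 h it read 18233, 16969 and 18015 with doxycycline, against 21082, 19682 and 19682 in controls. The groups overlapped at 24 h, and at 48 h all 3 doxycycline arrays lay below all 3 controls. The 48 h difference was -0.18 ± 0.07 (log2, SE, n = 3 pairs), a fold of 0.880 with a 95% interval of 0.776 to 0.999, and it did not pass the adjusted threshold.

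Hspa4 and Hsph1 belong to the Hsp110 family, the nucleotide exchange factors that release substrate from Hsp70. Hspa4 (chr10:37908866-37951994) read 923, 1034 and 1055 units with doxycycline at 24 h, against 897, 1127 and 1377 in controls, and 1261, 1243 and 882 at 48 h, against 1432, 1105 and 927. Over the 9 control arrays of all times it varied by 3.60-fold, more than any other tested member. Both extremes, 607 and 2185 units, were 5-day controls, so this range does not describe 24 h and 48 h. The groups of Hspa4 overlapped at both of these times. The log2 fold change was -0.16 at 24 h and -0.03 at 48 h.

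Hsph1 (chr12:10427368-10446602) has 2 probe sets. The brighter, 1388898_at, read 2001, 1862 and 1618 units with doxycycline at 24 h, against 2255, 1916 and 1841 in controls, and 1951, 1671 and 1803 at 48 h, against 2030, 1825 and 1752. Here too the groups overlapped at both times. The other, 1385620_at, had 965, 819 and 860 units with doxycycline at 48 h, all below the control values of 983, 1072 and 986. Its fitted difference was -0.20 on the log2 scale.

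Hsp90aa1 and Hsp90ab1 encode the inducible and constitutive cytosolic Hsp90, which matures kinases and steroid receptors. Hsp90aa1 (chr6:135523604-135529687) read 17627, 17698 and 16389 units on probe set 1372701_at with doxycycline at 24 h, against 17900, 16969 and 17131 in controls, and 16583, 16025 and 15763 at 48 h, against 16638, 16969 and 16905. This was among the steadiest member probe sets, with a 1.08-fold range over the 9 controls. The 48 h arrays with doxycycline were all below the controls, although the difference was only -0.06 ± 0.07 (log2, SE). The second probe set, 1388850_at, was also below all controls at 48 h, by -0.16 on the log2 scale.

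Hsp90ab1 (chr9:22930249-22935929) read 14601, 12866 and 15399 units on 1375336_at with doxycycline at 24 h, against 15348, 15110 and 16523 in controls, and 13994, 14331 and 15225 at 48 h, against 13803, 16854 and 16282. These groups overlapped. On 1375335_at the 48 h values were 11058, 10288 and 10544 with doxycycline, all below the controls at 12150, 12328 and 12241, and the log2 fold change was -0.20 ± 0.07 (SE).

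Dnajb1 and Dnaja1 are J-domain co-chaperones, which deliver substrates to Hsp70 and start its ATPase cycle, and Dnajb1 is a well known target of HSF1. Dnajb1 (chr19:41427453-41431141) read 1015, 1079 and 999 units on 1388722_at with doxycycline at 24 h, against 1098, 1111 and 1025 in controls, and 1140, 891 and 1102 at 48 h, against 1137, 1051 and 1056. The ranges overlapped at both times and the log2 fold change was -0.06 at each. Its other probe set, 1383302_at, gave -0.02 at 24 h and -0.13 at 48 h.

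Dnaja1 (chr5:60638404-60649315) gave the lowest value of any member at 24 h and at 48 h, on probe set 1368852_at. It read 3559, 3295 and 2874 units with doxycycline at 24 h, against 4023, 3798 and 3572 in controls, and 3016, 3406 and 3269 at 48 h, against 3441, 4218 and 3756. All doxycycline arrays lay below all controls at both times. The log2 fold change was -0.23 ± 0.07 (SE) at each time, with limma adjusted p values of 0.263 and 0.143. The brighter Dnaja1 probe set, 1398819_at, was at -0.06 and -0.09, so the 2 probe sets of this gene gave unequal values.

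The mitochondrial chaperonin is made of Hspd1 (Hsp60), the folding chamber, and its lid Hspe1 (Hsp10). Hspd1 read 8308, 8109 and 7583 units with doxycycline at 24 h, all below the controls at 8700, 8867 and 8784. At 48 h it read 8205, 9247 and 8952, against 8308, 9292 and 8721, and the groups overlapped. Its log2 fold change was -0.14 at 24 h and 0.00 at 48 h. Hspe1 (chr9:64084327-64087415), which shares the promoter stretch printed above, read 10516, 8918 and 8045 units with doxycycline at 24 h, against 9757, 8734 and 8058 in controls, and 9292, 8607 and 9182 at 48 h, against 8835, 9276 and 9038. Its groups overlapped at both times, at 0.05 and -0.00 on the log2 scale. Hspd1 had a 1.12-fold range over the 9 untreated arrays.

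Hspb1, the small heat shock protein Hsp25 or Hsp27 (chr12:26430640-26432301), could not be assessed. Its probe set 1367577_at read 1.49 to 23.0 units over all arrays and was at or under the floor of 5.99 units on 11 of 18, so it was not tested.

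**Figure D2:**
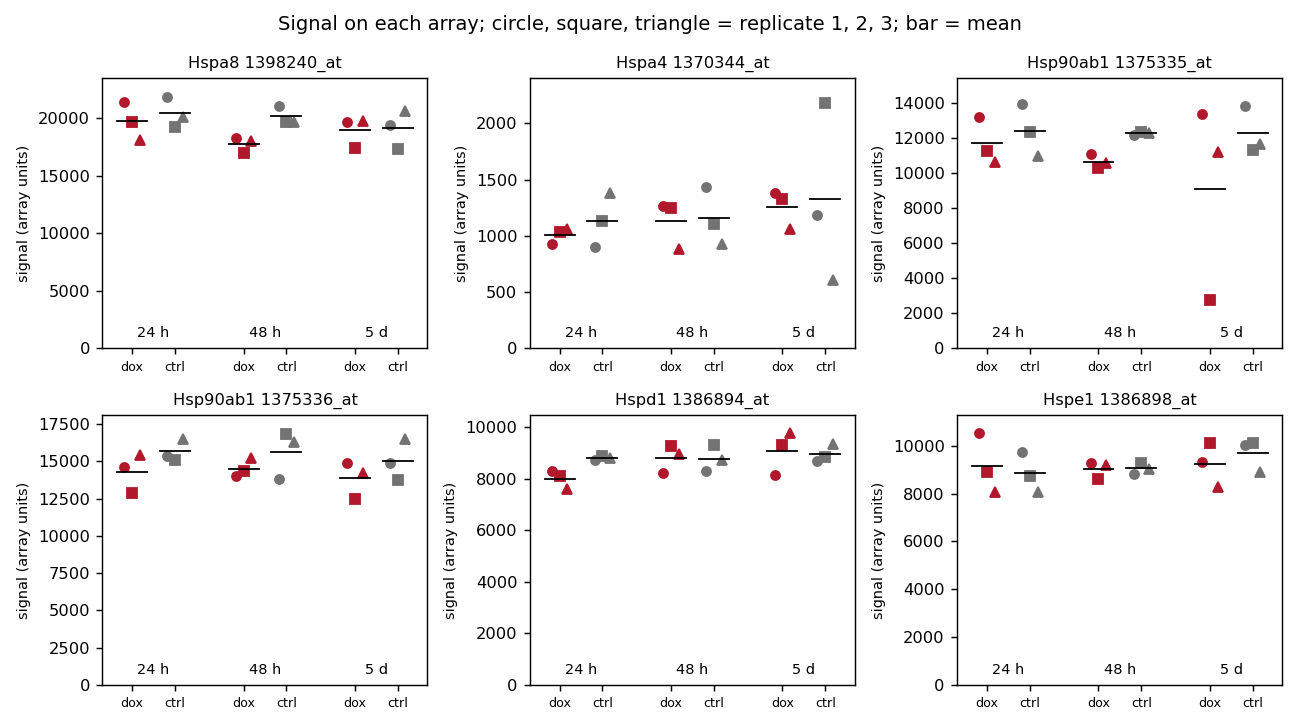
Quantile-normalized signal of 6 member probe sets on every array, doxycycline (red) left of control (grey) for each of the 3 times, with bars for group means (n = 3) and each vertical axis starting at 0. Hspa8 at 48 h sits below its controls, and the 5-day doxycycline array of experiment 2 stands at 2729 units for Hsp90ab1 probe set 1375335_at, against 12444 units for the same gene on 1375336_at.

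Counted over the members, small decreases were more common than increases at both early times. At 24 h 13 of 14 probe sets had a negative log2 fold change, and 2 of 14, those of Dnaja1 1368852_at and Hspd1, had 3 doxycycline arrays below all 3 controls, an arrangement found in 3.72% of all tested probe sets. None lay above all controls, where 5.03% of all did. At 48 h 13 of 14 were negative and 6 of 14 lay below all controls, where 10.8% of all probe sets did, and none lay above, where 11.3% did. Those 6 were Hspa8, Hsph1 1385620_at, both probe sets of Hsp90aa1, Hsp90ab1 1375335_at and Dnaja1 1368852_at. With single-gene probe sets alone 3 of 11 lay below at 48 h, 2 of 11 at 24 h, and 10 of 11 were negative at each time. These probe sets share the same 6 arrays and some share a gene, so the counts are a description. The shares over all tested probe sets include dimmer ones, and no set of equal brightness was compared. The median log2 fold change over all tested probe sets was -0.01 at both times, and their share of negative values was not counted. An unadjusted p under 0.05 was reached by 1 of 14 at 24 h and 3 of 14 at 48 h, all lower, where 6.94% and 12.5% of all probe sets were lower at that level. Among the 11 single-gene probe sets it was 1 and 2.

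In single experiments, 9, 9 and 13 of the 14 member probe sets were lower with doxycycline in experiments 1, 2 and 3 of 24 h, and 11, 13 and 9 in those of 48 h. The direction therefore did not rest on 1 experiment, although it was slight in some. The SD of the log2 ratios among members was 0.0959 to 0.139 within these 6 experiments, against 0.237 to 0.341 among all tested probe sets. These SDs are not of like signals. The tested members had mean log2 signals of 9.78 to 14.2, whereas probe sets were tested from 6.93 upward. No set of equal brightness was compared, so the smaller SD does not set the members apart. No difference between the effects at 48 h and at 24 h was detected for a member. The contrast of the times ran from -0.14 (Hsp90aa1 1388850_at) to 0.14 (Hspd1) on the log2 scale, and the smallest adjusted p in limma was 0.803, with 0 of 14 called and none at an unadjusted p under 0.05. Over all probe sets 0% were called in that contrast, and 6.67% reached an unadjusted p under 0.05.

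The ER chaperones measured on the same arrays show what the members were set against. At 24 h 6 of 12 rose, where 0.193% of all tested probe sets rose, with a median log2 fold change of 0.93 over the 12. The 6 were Sdf2l1 (1.99), Creld2 (1.51), Fkbp11 (1.25), Dnajc3 (1.08), Dnajb9 (0.99) and Dnajb11 (0.89). At 48 h 12 of 12 rose, where 2.33% of all tested probe sets rose, with a median of 1.13. This list was chosen with its response in these data known, so its count is no independent evidence. Its calls, and that of Hspa9 below, depend on the fit: with all 18 arrays in 1 fit, or with no filter on dim probe sets, 0 of all probe sets were called at 24 h and 0 at 48 h.

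The 5 members with a relative of the same family in the ER were also set against that relative. Hspa5, the ER Hsp70, read 23710, 23254 and 22278 units with doxycycline at 48 h, against 14430, 14239 and 14957 in controls, a log2 fold change of 0.67 (limma adjusted p 0.0263). The doxycycline arrays were all above the controls, the reverse of Hspa8. The log2 ratio of Hspa8 was below that of Hspa5 in 6 of 6 experiments, by -0.86 ± 0.105 (mean difference of member minus ER counterpart, SD, n = 6 pairs of arrays from 24 h and 48 h).

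Hsp90b1, the ER Hsp90 (GRP94), rose by 0.51 at 48 h (limma adjusted p 0.0354). The difference was -0.51 ± 0.0897 for Hsp90aa1 and -0.59 ± 0.0844 for Hsp90ab1 (SD, n = 6 pairs). Hyou1, the ER relative of Hsp110, was a dim probe set and rose by 0.88 (adjusted p 0.0446), and Hsph1 minus Hyou1 was -0.88 ± 0.395, the most variable of the 5 differences. Dnajb11, the ER J-domain protein ERdj3, rose by 1.03 (adjusted p 0.0126), and Dnajb1 minus Dnajb11 was -1.02 ± 0.143.

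All 5 differences were negative in 6 of 6 pairs of arrays of 24 h and 48 h. It is not stated whether pairs of different times came from the same experiment, so the 6 may not be independent. Because the ER counterparts were chosen with their rise in these data known, the differences are a description, and no p is given for them. At 5 days they did not all run this way. In experiment 1 as labelled all 5 were positive, from 0.82 to 1.57. In experiment 2 all were negative, from -1.90 to -0.70. In experiment 3 the other 4 were negative, from -0.98 to -0.29, but Hsph1 minus Hyou1 was 0.32. The paired plot of log2 ratios for the 5 gene pairs shows the separation.

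**Figure D3:**
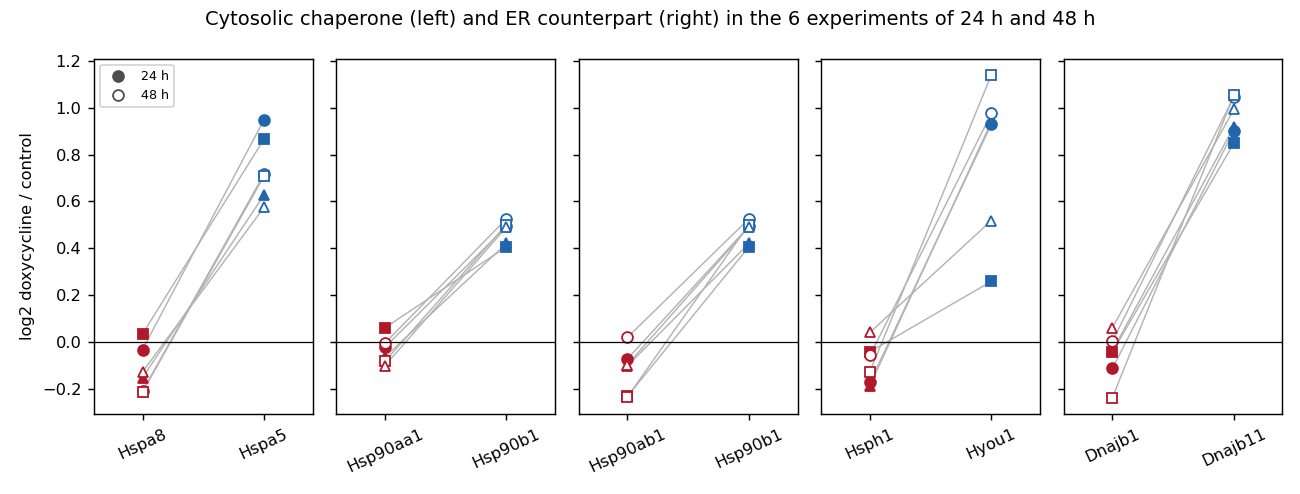
Log2 ratio of doxycycline to control signal for each cytosolic chaperone (left, red) and its ER counterpart (right, blue) in the 3 experiments of 24 h (filled) and the 3 of 48 h (open), joined by a line within an experiment. Every line slopes upward, by between 0.30 and 1.29 log2 units.

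A wider list of 56 other heat shock genes, co-chaperones and mitochondrial chaperones was chosen with earlier results known, and 49 of them could be tested on a single-gene probe set. None was called at 24 h in limma, where 2 of 49 were higher at an unadjusted p under 0.05, as were 7.75% of all probe sets. At 48 h 1 of 49 was called, a share near the 3.52% of all probe sets called then, and at 5 days 0, as over the whole array (0%). The median log2 fold change of the 49 stood at -0.01 at both early times and -0.06 at 5 days, against -0.01 and 0.03 for all tested probe sets. Hsf1 itself, the transcription factor of the heat shock response, had a log2 fold change of 0.07 at 24 h and 0.10 at 48 h.

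The called gene was Hspa9, the mitochondrial Hsp70 (mortalin), which pulls proteins through the inner membrane into the matrix and works beside Hspd1 and Hspe1. Its probe set 1388851_at read 4830, 4780 and 4488 units with doxycycline at 48 h, against 3167, 3261 and 2931 in controls. All 3 doxycycline arrays were above all controls, and the log2 fold change was 0.59 ± 0.07 (SE), with a limma adjusted p of 0.0290. A second probe set, 1370690_at, rose by 0.58 (adjusted p 0.0383). At 24 h the first gave 0.23 (adjusted p 0.302), and the difference between times, 0.36, did not pass (adjusted p 0.663). At 5 days the values were -0.12 for 1388851_at and -0.39 for 1370690_at as labelled, and -0.00 and -0.10 with the labels of experiment 1 exchanged, none past the threshold. Other genes at the edge of the list did not pass. Dnajb2, a J-domain protein, was at 0.31 at 24 h (adjusted p 0.201) and Bag2, an Hsp70 nucleotide exchange factor, at 0.37 at 48 h (adjusted p 0.285), with single ratios of -0.02, 0.26 and 0.88 in experiments 1, 2 and 3.

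**Figure D4:**
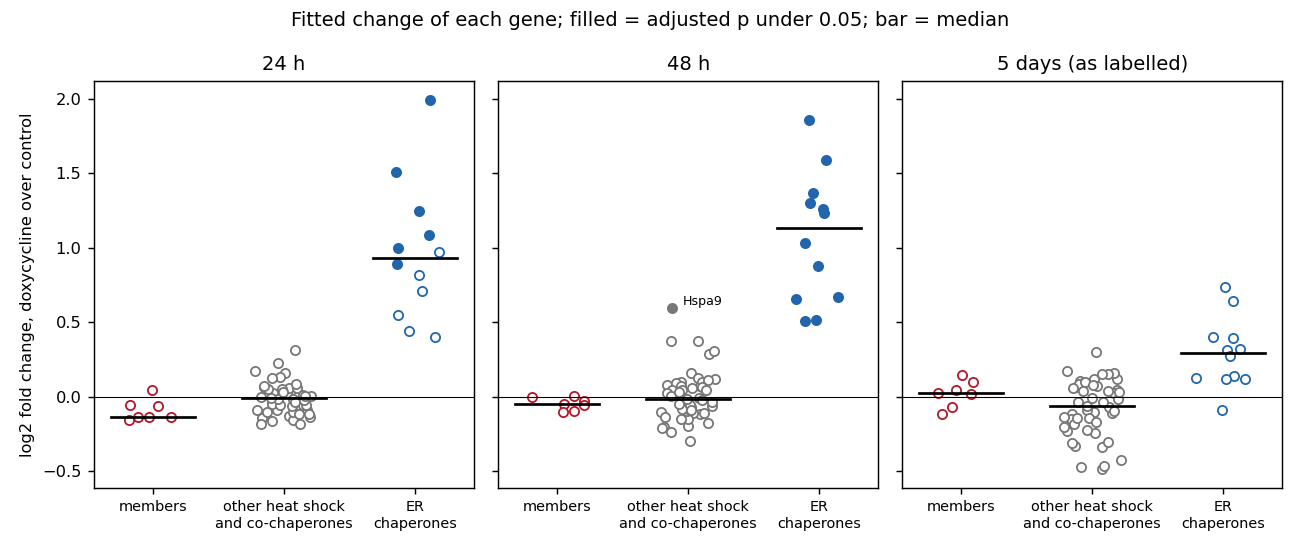
Fitted log2 fold change of doxycycline over control, 1 point for each gene on its brightest single-gene probe set, for 7 members, 49 other heat shock and co-chaperone genes and 12 ER chaperones in a panel for each of the 3 times (5 days as labelled), with bars for medians and filled points for an adjusted p under 0.05. The members and the wider list gather around 0, with Hspa9 at 48 h as the 1 filled point among them, whereas the ER chaperones have a median of 0.93 at 24 h and 1.13 at 48 h.

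At 5 days, as labelled, 7 of 14 member probe sets were positive and 7 negative (6 and 5 of the 11 with a single gene), with a median of 0.00 beside 0.03 for all tested probe sets. None reached an unadjusted p under 0.05, where 1.11% of all probe sets were higher and 1.37% lower at that level. Intervals were wider than at the early times and ran from -1.87 to 0.93. In 1 of 14, Hsp90aa1 1372701_at, the doxycycline arrays, at 18491, 18681 and 17627 units, lay above the controls at 17358, 16690 and 16690, where 3.73% of all probe sets did. Among the 11 with a single gene, 0 lay above. None of the 14 lay below all controls, where 2.76% did.

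The lowest value belonged to Hsp90ab1 probe set 1375335_at, at -0.72 on the log2 scale. It read 13340, 2729 and 11186 units with doxycycline, against 13803, 11300 and 11659 in controls, so only the doxycycline array of experiment 2 was low. Without experiment 2 the value was -0.05. The same array also read low on Dnajb1 1383302_at, with 378 units against 736 in its control, while Dnajb1 1388722_at read 1125 against 926. The 2 probe sets of a gene thus parted on the array with the high GAPDH 3′ to 5′ ratio, whose part in these values was not tested beyond leaving it out.

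In experiment 1 at 5 days, where the ER chaperones were reversed, the members had a median log2 ratio of 0.01 and a range of -0.19 to 0.30. With its labels exchanged, 0 of 14 member probe sets were called, as were 0% of all probe sets, and 8 were negative and 6 positive. With the labels exchanged and experiment 2 left out, 0 of 14 were called again, where 0.00644% of all were, and log2 fold changes ran from -0.24 (Dnaja1 1368852_at) to 0.29 (Hspa4). With so few calls over the whole array these counts say nothing particular about the members. Hspa8 was at -0.01 as labelled and -0.02 exchanged. Hspa5, in contrast, was at 0.12 as labelled and 1.08 exchanged, neither past the threshold. In the wider list the largest 5-day values, Cdc37 (-0.49) and Fkbp5 (-0.47), came from experiment 2, whose ratios were -1.74 and -1.58.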

How the data were processed

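Biotin-labelled RNA had been hybridized by the authors to rat expression arrays, 18 in all, and the deposited table holds linear intensities. Which program made them was not stated in the sources read. The 2% trimmed mean of each array was 500.1 to 500.2 units, so the arrays had been scaled. Their medians ran from 91.2 to 138.5, and they were quantile normalized here, floored at the 10th percentile of all values (5.99), and put on the log2 scale. Probe sets whose mean reached the 50th percentile, 15521 in number, were tested with limma 3.58.1 in R 4.3.3, each time alone, with same-numbered arrays as pairs and a Benjamini-Hochberg threshold of 0.05. Paired arrays deviated together from their group means, with correlations of 0.667, 0.484 and 0.662 (24 h), 0.578, 0.256 and 0.359 (48 h), then 0.149, 0.142 and 0.109 (5 days), and no 2 arrays were identical. The number of arrays limits the precision. Genes were named from the platform annotation, and a gene with several probe sets is represented by the brightest. All members are named. Of the other lists, genes past the threshold (at most 8) and the 2 largest changes at each time could be named, and Hsf1 was named outside this rule after its values were seen. The members and lists were chosen with earlier results of these data known. Promoter letters and positions are RefSeq, GRCr8. Alternatives were the normalization, filter, floor, arrays fitted, pairing, test, labels and each replicate left out.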

Additional observations from a re-analysis of the deposited data

Results flagged for a closer look

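Hsp90aa1 probe set 1372701_at, shared with the pseudogene Hsp90aa1-ps17, went one way in all 3 experiments of 5 days and the other way in all 3 of 48 h. Its mean log2 ratio of doxycycline to control was 0.11 at 5 days as labelled and -0.06 at 48 h. This difference between times was not tested, neither value passed the threshold, and with the labels of experiment 1 at 5 days exchanged and experiment 2 left out the 5-day value was -0.01.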

How the results depend on the processing

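Member probe sets called stayed at 0 of 14 at every time under every alternative that was run, and the smallest adjusted p of a member over all of them was 0.0683, at 48 h with the 12 arrays of 24 h and 48 h in one fit. The signs of 13 of 14 at 24 h held in all alternatives but those leaving out replicates, which gave 10 to 13, and at 48 h 13 of 14 became 11 to 14 with a replicate left out and 14 with no quantile normalization. Of the member values, 4 of 140 at 24 h, 5 of 140 at 48 h and 24 of 168 at 5 days changed sign. Calls over the whole array were far less stable. At 24 h 30 probe sets were higher and 2 lower. Both became 0 with no filter on dim probe sets, with all 18 arrays in one fit, without the replicate block, with the methods' t-test and without any 1 replicate (0 to 0), but 169 and 45 with the 12 arrays. At 48 h 361 were higher and 185 lower. Both became 0 with no filter and with all 18 arrays. Without the replicate block the counts were 208 and 67, with the methods' t-test 121 and 41, with the 12 arrays 876 and 734, and with a replicate left out 0 to 29 and 0 to 7. The calls of ER chaperones and of Hspa9 are lost with them: of 160 values of the other named genes, 42 at 24 h and 74 at 48 h fell short of the threshold. At 5 days none was called, but 284 were higher and 141 lower with the labels of replicate 1 exchanged and all 18 arrays in one fit, and 1 was higher with those labels exchanged and replicate 2 left out, both chosen after seeing the data. Leaving out replicates, member minus ER counterpart ran from -0.92 to -0.81 for Hspa8, -0.53 to -0.49 for Hsp90aa1, -0.62 to -0.55 for Hsp90ab1, -0.93 to -0.79 for Hsph1 and -1.06 to -0.99 for Dnajb1. Dim probe sets such as that of Hspb1, and changes within the intervals given, are beyond what these arrays resolve.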

Other observations

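Probe set 1393555_at has no gene in the platform annotation, so it was left out of the members. The study's supplement gives it to Hsp90ab1. It stands there in a list of genes changed more than 2-fold in 2 or more of 3 experiments, so the study did report a change under this member's name. The signals of 1393555_at were 162 to 224 units on 8 arrays and 262 units in the 5-day control of experiment 1. On the other arrays they were 551 to 1008 units. As labelled, high and low signals did not follow treatment. The log2 ratios of doxycycline to control were -0.08, -0.25 and 0.11 in experiments 1, 2 and 3 of 24 h, -0.45, 1.89 and -0.31 in those of 48 h, and 1.69, -1.72 and -0.11 in those of 5 days. With the labels of experiment 1 at 5 days exchanged, the ratio of that experiment changes sign. Experiments 1 and 2 of 5 days were then both lower with doxycycline by more than 2-fold. Experiment 2 includes the array with the high GAPDH 3′ to 5′ ratio. As labelled, the probe set was not called in limma at any time, with adjusted p values of 0.769, 0.681 and 0.993.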
